A study of Mus musculus with 8 samples.

Results

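The Hippo pathway genes and targets of its effector YAP were examined in heart ventricles from mouse embryos collected at E15.5. The 10 genes were taken from a list of names: the effectors *Yap1* and *Wwtr1*, the transcription factor *Tead1*, the kinases *Lats1* and *Lats2*, the scaffolds *Amotl2* and *Ajuba*, and the targets *Ankrd1*, *Cyr61* (now *Ccn1*) and *Ctgf* (now *Ccn2*). They are 10 of the 53465 genes in the count table, and all 10 passed the filter on low counts. Poly(A) RNA of whole ventricles was sequenced from 4 embryos labelled WT and from 4 embryos, here called *Nrg1GOF*, that carry a *Nrg1* transgene at Rosa26 and a Cre driver. The genotype label of the mutants reads Rosa26Nrg-1;Nkx5.5-Cre, whereas the title of the series names the cardiac driver Nkx2.5-Cre. Cre under this driver acts in cells of the cardiac *Nkx2.5* lineage, while the RNA came from every cell of the ventricle. The labels give 1 ventricle sample per replicate and name no strain, litter or batch, and they do not say whether the WT embryos carried either allele alone.

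In the Hippo pathway, the MST kinases and their scaffold Sav1 activate the LATS kinases, which phosphorylate the coactivators YAP (*Yap1*) and TAZ (*Wwtr1*) and so keep them in the cytoplasm. Unphosphorylated YAP and TAZ enter the nucleus, bind TEAD factors and raise transcription of targets such as *Ctgf*, *Cyr61* and *Ankrd1*. In the fetal heart the pathway is known for limiting cardiomyocyte proliferation. Phosphorylation and location of YAP were not measured here, and the values below are RNA levels.

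Library totals ranged from 8038641 counts (*Nrg1GOF* replicate 4) to 26786039 counts (WT replicate 1). On these totals, without the scaling given next, the depth of 3 counts corresponded to 0.112 to 0.373 CPM. CPM are counts-per-million on a library size scaled by TMM, a trimmed mean of ratios between libraries. *Nrg1* stood at 59.7 to 63.7 CPM in *Nrg1GOF* and 3.07 to 4.47 CPM in WT, so that every library matched its label. Of 15580 tested genes, 4467 (28.7%) had an adjusted p under 0.05 in the edgeR quasi-likelihood test with Benjamini-Hochberg adjustment, and such genes are described as called. Of these, 2474 (15.9% of tested genes) were higher and 1993 (12.8%) lower in *Nrg1GOF*, and library totals without TMM gave 2874 higher and 1521 lower. Within WT, replicates 1 and 2 lay closer to each other than to replicates 3 and 4 for several of the genes described here. In bulk RNA, fewer cells of a type and less RNA per cell cannot be told apart.

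*Ankrd1*, *Cyr61* and *Ctgf* rose in *Nrg1GOF*, and none of the other 7 genes was called, including *Amotl2*, which is itself a YAP target. *Ctgf* rose 3.24-fold, *Ankrd1* 2.36-fold and *Cyr61* 1.94-fold. Called genes thus made up 3 of 10 (30%, all higher), against 28.7% of all tested genes called and 15.9% called higher. The libraries of the genotypes did not overlap for the same 3 genes, where 30.7% of all tested genes showed no overlap. The median log2 fold change of the 10 genes was 0.16, and that of all tested genes was -0.012. The share called was near that of the whole table.

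**Figure D1:**
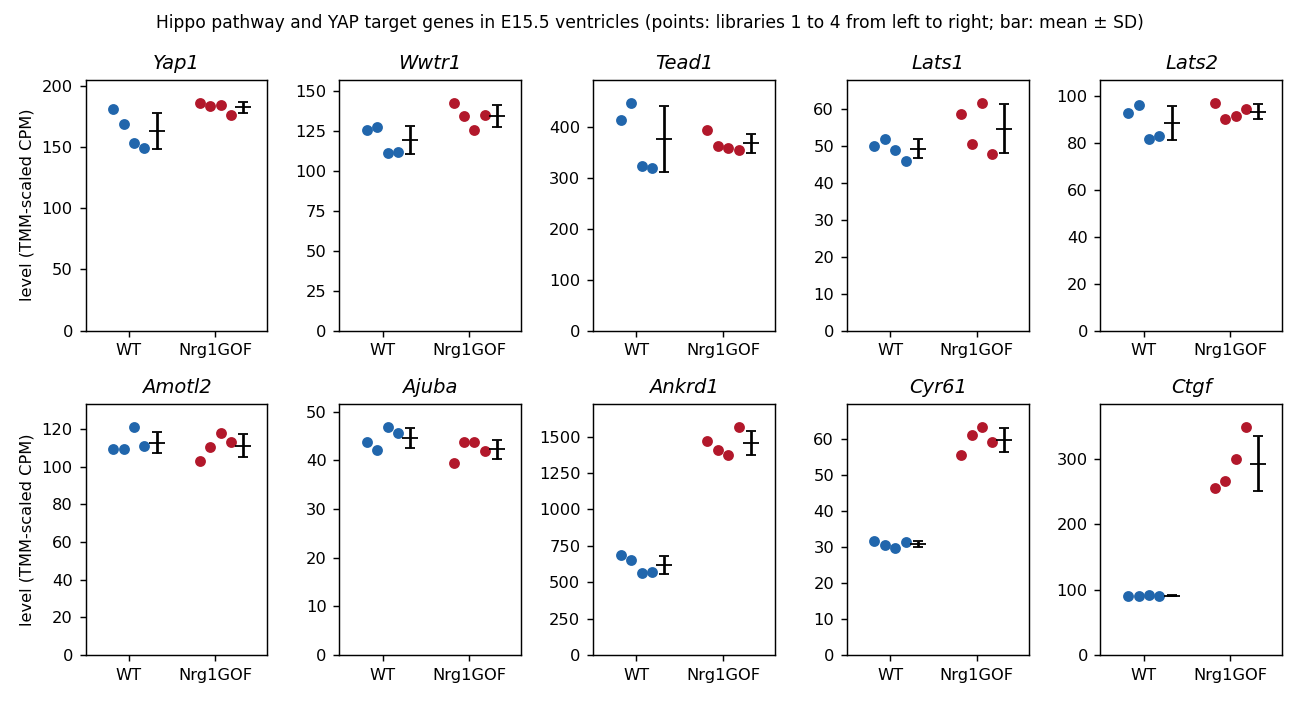
Level of each gene in TMM-scaled CPM (vertical axes, starting at 0) in the 4 WT and 4 *Nrg1GOF* libraries, drawn as points for replicates 1 to 4 from left to right, with mean and SD beside them. *Ankrd1*, *Cyr61* and *Ctgf* separate the genotypes without overlap, and WT replicates 3 and 4 lie under WT replicates 1 and 2 for *Yap1*, *Wwtr1*, *Tead1*, *Lats1*, *Lats2* and *Ankrd1*.

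*Ctgf* (ENSMUSG00000019997, GRCm38 chr10:24595442-24598683, plus strand) encodes connective tissue growth factor, a secreted matricellular protein of the CCN family and a standard readout of YAP activity. Its level was 89.8, 89.6, 91.2 and 90.6 CPM in WT replicates 1 to 4 and 255, 267, 300.2 and 349 CPM in *Nrg1GOF* replicates 1 to 4. All WT libraries lay within 2 CPM of each other, while *Nrg1GOF* libraries were spread widely, with replicate 4 the highest. WT averaged 90.3 ± 0.73 CPM (SD, n = 4) against 293 ± 42.0 CPM (SD, n = 4), so that the coefficient of variation was 0.81% in WT and 14.4% in *Nrg1GOF*. At the 1642 to 2350 counts of these WT libraries, counting error alone is expected to exceed 0.81%. That value thus does not measure the spread between embryos. The log2 fold change was 1.69 (SE 0.09, 95% interval 1.49 to 1.90), with an edgeR quasi-likelihood adjusted p of 3.85e-06, and the gene ranked 130 among all tested genes by this value. An exon of *Gm15270* overlaps *Ctgf* on the opposite strand, and that transcript was assigned 1.56 CPM in WT and 1.65 CPM in *Nrg1GOF* on average. The strand setting of the counting is not given in the sources used here, so reads of both cannot be told apart.

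*Ankrd1* (ENSMUSG00000024803, chr19:36111961-36120099, minus strand) encodes a cardiac ankyrin repeat protein of the sarcomere and nucleus that responds to load and is also a YAP target. It was the most abundant of the 10 genes, with 684, 653, 565 and 568 CPM in WT replicates 1 to 4 and 1472, 1409, 1373 and 1567 CPM in *Nrg1GOF* replicates 1 to 4. The lowest *Nrg1GOF* library stood 689 CPM above the highest WT library. Means were 617 ± 60.0 CPM (SD, n = 4) in WT and 1455 ± 84.9 CPM (SD, n = 4) in *Nrg1GOF*, and the log2 fold change was 1.24 (SE 0.08, 95% interval 1.06 to 1.41, edgeR adjusted p = 9.82e-06). The mean of WT replicates 3 and 4 differed from that of replicates 1 and 2 by -15.2%, and the log2 fold change was 1.12 against the upper WT pair alone and 1.37 against the lower pair alone.

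*Cyr61* (ENSMUSG00000028195, chr3:145646976-145649981, minus strand) encodes the founding member of the CCN family, a secreted integrin ligand. It was measured at 31.8, 30.7, 29.8 and 31.4 CPM in WT replicates 1 to 4 and at 55.6, 61.2, 63.5 and 59.3 CPM in *Nrg1GOF* replicates 1 to 4. Both groups were tight and stood 23.8 CPM apart at their nearest libraries. The means of 30.9 ± 0.87 CPM (SD, n = 4) and 59.9 ± 3.34 CPM (SD, n = 4) gave a log2 fold change of 0.95 (SE 0.06, 95% interval 0.83 to 1.08, edgeR adjusted p = 6.34e-06). *Nrg1GOF* replicate 4, the shallowest library, still held 474 counts of *Cyr61* and 2790 of *Ctgf*.

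The rises of both CCN genes were compared through the ratio of their levels. The log2 ratio of *Ctgf* to *Cyr61* was 1.53 ± 0.05 (SD, n = 4) in WT and 2.27 ± 0.19 (SD, n = 4) in *Nrg1GOF*, a difference of 0.74, and the groups did not overlap. The exact two-sided permutation p was 0.0286, which is the smallest that 4 against 4 libraries allow. After adjustment over 4 paralog pairs it was 0.114. A pair that reaches the smallest p alone cannot pass the threshold after this adjustment, so the adjusted value decides nothing. Per library, *Nrg1GOF* replicate 4 had the highest ratio (2.55) and replicate 2 the lowest (2.11), against at most 1.59 in WT. Of the CCN family beyond these, *Wisp1* rose (log2 fold change 0.71, SE 0.10, edgeR adjusted p = 0.000739) and *Nov* rose (0.63, SE 0.20, adjusted p = 0.0368), whereas *Wisp2* and *Wisp3* had too few counts to be tested. The call of *Nov* was lost without any 1 of the *Nrg1GOF* libraries or without WT replicate 3 or 4 (log2 fold change 0.49 to 0.67, adjusted p 0.0547 to 0.0964). The mean of *Nov* in WT replicates 3 and 4 differed from that in replicates 1 and 2 by -42.4%, and its log2 fold change was 0.28 against WT replicates 1 and 2 alone (edgeR adjusted p = 0.105) and 1.08 against WT replicates 3 and 4 alone.

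The effectors had slightly higher means in *Nrg1GOF* but were not called. *Yap1* (ENSMUSG00000053110, chr9:7931999-8004596, minus strand) stood at 180, 169, 153 and 149 CPM in WT replicates 1 to 4 and at 186, 183, 184 and 176 CPM in *Nrg1GOF* replicates 1 to 4. WT replicate 1 lay within the *Nrg1GOF* range, and the mean of WT replicates 3 and 4 differed from that of replicates 1 and 2 by -13.6%. The log2 fold change was 0.17 (SE 0.07, 95% interval 0.02 to 0.32), with an edgeR adjusted p of 0.0930. Without WT replicate 1 it was 0.22 and passed the threshold (adjusted p = 0.0322), as it did against WT replicates 3 and 4 alone (0.28, adjusted p = 0.0100). Against WT replicates 1 and 2 alone it was 0.062 (edgeR adjusted p = 0.562). An exon of *Gm20416* overlaps *Yap1* on the opposite strand, and that transcript was assigned at most 3 counts in any library.

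*Wwtr1* (ENSMUSG00000027803, chr3:57455649-57575910, minus strand), which encodes TAZ, behaved much like its paralog. Its level was 126, 127, 112 and 112 CPM in WT replicates 1 to 4 and 143, 135, 126 and 135 CPM in *Nrg1GOF* replicates 1 to 4, with *Nrg1GOF* replicate 3 just below the upper WT libraries. The log2 fold change was 0.18 (SE 0.07, 95% interval 0.03 to 0.32, edgeR adjusted p = 0.0709), and without *Nrg1GOF* replicate 3 it was 0.22 and called (adjusted p = 0.0396). Against WT replicates 3 and 4 alone it was 0.28 (adjusted p = 0.0180), and against WT replicates 1 and 2 alone 0.086 (adjusted p = 0.443). *Wwtr1* was also called with library totals alone (0.22, edgeR adjusted p = 0.0190) and with the replicate number as a block (0.18, adjusted p = 0.0406). A stricter count filter called it too (0.19, adjusted p = 0.0384). The log2 ratio of *Wwtr1* to *Yap1* differed by 0.0085 between the genotypes (exact permutation p = 0.829, adjusted 0.829). The upper ends of both intervals correspond to rises well short of those of *Ankrd1*, *Cyr61* and *Ctgf*.

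*Tead1* (ENSMUSG00000055320, chr7:112679318-112906807, plus strand) encodes a DNA-binding partner of YAP and TAZ. It varied most within WT, with 415, 449, 324 and 321 CPM in replicates 1 to 4, whereas *Nrg1GOF* replicates 1 to 4 had 395, 364, 359 and 355 CPM. All *Nrg1GOF* libraries lay between the WT pairs. The mean of WT replicates 3 and 4 differed from that of replicates 1 and 2 by -25.4%, and the log2 fold change of -0.033 (SE 0.11, 95% interval -0.28 to 0.21, edgeR adjusted p = 0.858) became 0.20 against the lower pair and -0.23 against the upper pair, neither of them called. It was 0.015 without WT replicate 1 and 0.060 without WT replicate 2, so the direction of this difference was not settled by these libraries.

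Per kilobase of its longest coding transcript, *Tead1* made up 41.7% ± 7.75 (SD, n = 4) of the summed TEAD level in WT and 42.6% ± 4.02 (SD, n = 4) in *Nrg1GOF*, with *Tead2* next at 39.2% and 38.8%. *Tead3* held 16.3% and 15.9%, and *Tead4* 2.74% and 2.62%, and none of these 3 paralogs was called. The mean of *Tead3* was 95.9% higher in WT replicates 3 and 4 than in replicates 1 and 2. Of the VGLL cofactors that bind TEAD, *Vgll3* rose (log2 fold change 1.14, SE 0.28, edgeR adjusted p = 0.0136) from 3.79 ± 1.67 CPM to 8.27 ± 1.13 CPM (SD, n = 4 each). WT replicates 1 to 4 had 4.78, 5.62, 2.59 and 2.17 CPM of *Vgll3*, and its log2 fold change was 0.68 against WT replicates 1 and 2 alone and 1.80 against WT replicates 3 and 4 alone, both called. *Vgll4*, which encodes a competitor of YAP for TEAD binding, also rose (0.35, SE 0.06, adjusted p = 0.00223). *Vgll2* was not tested for low counts.

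Neither LATS kinase was called. *Lats1* (ENSMUSG00000040021, chr10:7681214-7716460, plus strand) had 50.1, 52.0, 49.0 and 46.0 CPM in WT replicates 1 to 4 and 58.7, 50.6, 61.8 and 47.9 CPM in *Nrg1GOF* replicates 1 to 4. Only *Nrg1GOF* replicates 1 and 3 exceeded all WT libraries, and the log2 fold change was 0.16 (SE 0.08, 95% interval -0.03 to 0.35, edgeR adjusted p = 0.193). It was 0.10 without *Nrg1GOF* replicate 3 and 0.22 without *Nrg1GOF* replicate 4, and called in neither case. *Lats2* (ENSMUSG00000021959, chr14:57689662-57758388, minus strand) had 92.9, 96.4, 81.9 and 82.9 CPM in WT replicates 1 to 4 and 97.3, 90.1, 91.6 and 94.6 CPM in *Nrg1GOF* replicates 1 to 4. Its *Nrg1GOF* libraries overlapped WT replicates 1 and 2 and stood above WT replicates 3 and 4, with a log2 fold change of 0.08 (SE 0.07, 95% interval -0.07 to 0.22, edgeR adjusted p = 0.415). This value became -0.021 against WT replicates 1 and 2 alone and 0.19 against WT replicates 3 and 4 alone (edgeR adjusted p = 0.0521). Leaving out 1 library gave 0.041 to 0.12. The log2 ratio of *Lats2* to *Lats1* differed by -0.06 (exact permutation p = 0.514, adjusted 0.829). An exon of the protein-coding gene *Gm49361* overlaps *Lats2* on the same strand. *Gm49361* was assigned 15 and 22 counts in *Nrg1GOF* replicates 2 and 4 and 0 in all other libraries. How reads were shared between both genes was not tested.

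The scaffolds that bind YAP or restrain LATS were not called either. *Amotl2* (ENSMUSG00000032531, chr9:102716672-102733418, plus strand) encodes an angiomotin-like junction protein that binds YAP, and its own gene is a YAP target. It was measured at 109, 109, 121 and 111 CPM in WT replicates 1 to 4 and at 103, 110, 118 and 113 CPM in *Nrg1GOF* replicates 1 to 4. The ranges overlapped in part, between 109 and 118 CPM, and the log2 fold change was -0.020 (SE 0.06, 95% interval -0.15 to 0.11, edgeR adjusted p = 0.839). It was 0.015 without *Nrg1GOF* replicate 1 or WT replicate 3. The interval of this target gene thus lay below those of *Cyr61*, *Ankrd1* and *Ctgf*. *Ajuba* (ENSMUSG00000022178, chr14:54567472-54577558, minus strand) encodes a LIM protein that binds and inhibits LATS kinases. It had 43.8, 42.2, 46.9 and 45.6 CPM in WT replicates 1 to 4 and 39.5, 43.8, 43.7 and 42.0 CPM in *Nrg1GOF* replicates 1 to 4, and its log2 fold change was -0.08 (SE 0.06, 95% interval -0.21 to 0.05, edgeR adjusted p = 0.343). Leaving out 1 library gave -0.11 to -0.046.

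Among the angiomotins per kilobase, *Amotl2* made up 48.9% of the summed level in WT and 47.2% in *Nrg1GOF*, and *Amotl1* 45.3% in both. The log2 ratio of *Amotl2* to *Amotl1* differed by -0.05 (exact permutation p = 0.686, adjusted 0.829). The least abundant angiomotin, *Amot*, rose (log2 fold change 0.42, SE 0.08, edgeR adjusted p = 0.00444) and *Limd1*, a relative of *Ajuba*, fell (log2 fold change -0.18, SE 0.05, adjusted p = 0.0289). The call of *Limd1* was lost without *Nrg1GOF* replicate 1, 2 or 3 or WT replicate 1 or 2 (log2 fold change -0.18 to -0.15, adjusted p 0.0537 to 0.0817). It was also lost against WT replicates 3 and 4 alone (-0.12, edgeR adjusted p = 0.195) and after thinning to equal totals (-0.088, adjusted p = 0.368). Without a count filter and with WT pairs summed, *Limd1* was not called either.

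Levels between genes were compared per kilobase of the longest coding transcript. In WT, *Ankrd1* had the highest level at 306 ± 29.7 CPM per kilobase (SD, n = 4), and *Yap1* (39.0), *Tead1* (37.8) and *Ctgf* (36.3) followed with overlapping library ranges. *Amotl2* (26.02) and *Wwtr1* (25.4) also overlapped each other, and *Lats2* (17.1), *Cyr61* (15.3), *Ajuba* (13.1) and *Lats1* (6.83 CPM per kilobase) came last. In *Nrg1GOF*, *Ctgf* reached 118 ± 16.9 CPM per kilobase (SD, n = 4) and stood between *Ankrd1* (720) and *Yap1* (43.7), and *Cyr61* reached 29.7, a level near that of *Wwtr1* (28.7). The order depends on the length used. Per kilobase of all merged exons, *Yap1* had 17.6 CPM in WT and ranked below *Ctgf* (31.6), *Tead1* (27.8), *Wwtr1* (24.9) and *Amotl2* (17.9).

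The wider pathway was examined through 36 other components, of which 33 were tested and 9 were called (27.3% against 28.7% of all tested genes), 8 higher and 1 lower, with a median log2 fold change of 0.045. These include the 4 other CCN genes, a secreted family rather than part of the kinase pathway, which held 2 of the 9 calls, and *Ptpn14*, which is also counted among the other targets. Of 12 upstream regulators 2 were called, the kinase gene *Taok3* (log2 fold change 0.74, SE 0.08, edgeR adjusted p = 0.000217) and the protocadherin gene *Dchs1* (0.51, SE 0.15, adjusted p = 0.0251), both higher. Of the 7 genes of the kinase cassette only the LATS cofactor *Mob1a* was called (0.27, SE 0.07, adjusted p = 0.0179). The junction scaffolds held 2 calls of 7, the TEAD factors and partners 2 of 5 tested and the CCN family 2 of 2 tested, all named above.

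The count for these components rested partly on single libraries. It was 5 of the tested genes without *Nrg1GOF* replicate 1 and also 5 without *Nrg1GOF* replicate 2, where 24.2% and 20.4% of all tested genes were called. *Mob1a* lost its call without *Nrg1GOF* replicate 1 or 2 or WT replicate 3 or 4 (log2 fold change 0.23 to 0.27, edgeR adjusted p just past the threshold and at most 0.0548), and against WT replicates 1 and 2 alone (0.18, adjusted p = 0.143). *Dchs1* lost its call without *Nrg1GOF* replicate 1, 2 or 3 or WT replicate 3 or 4 (log2 fold change 0.41 to 0.52, edgeR adjusted p 0.0510 to 0.0692). For *Dchs1* the mean of WT replicates 3 and 4 differed from that of replicates 1 and 2 by -33.9%, and the log2 fold change was 0.24 against the upper pair (adjusted p = 0.0521) and 0.85 against the lower. *Taok3*, *Amot*, *Vgll3*, *Vgll4* and *Wisp1* were called whichever library was left out.

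**Figure D2:**
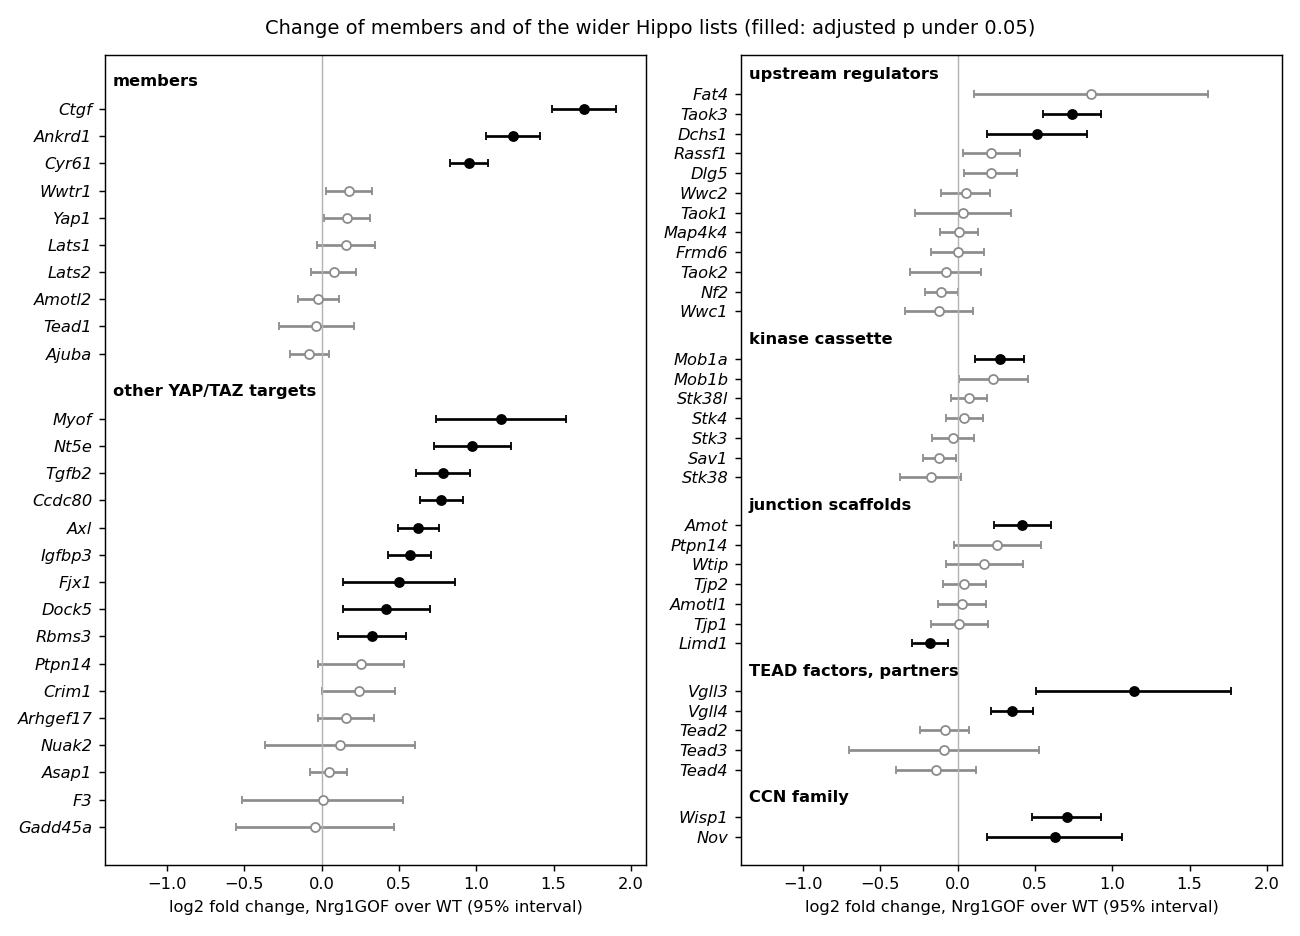
Log2 fold change of *Nrg1GOF* over WT (horizontal axes) with 95% intervals for the 10 genes, the other YAP targets and the other pathway components, filled where the edgeR adjusted p is under 0.05. *Ctgf* (1.69), *Ankrd1* (1.24) and *Cyr61* (0.95) stand apart from the other 7 genes (-0.08 to 0.18), and the called targets all lie to the right of 0.

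Other genes known as targets of YAP and TAZ were read from the same fit. Of 17 such genes 16 were tested, 9 were called and all 9 were higher (56.3% called, against 28.7% of all tested genes), and the median log2 fold change was 0.37. This list was chosen with earlier results of these data known, so the share called is no independent result. The largest changes were those of *Myof*, a membrane repair protein (log2 fold change 1.16, SE 0.19, edgeR adjusted p = 0.00148), *Nt5e*, the ecto-nucleotidase CD73 (0.98, SE 0.11, adjusted p = 0.000220), and the growth factor gene *Tgfb2* (0.78, SE 0.08, adjusted p = 0.000105). *Ccdc80*, which encodes a matrix protein, rose by a log2 fold change of 0.77 (SE 0.06, edgeR adjusted p = 3.80e-05), and the receptor tyrosine kinase gene *Axl* by 0.63 (SE 0.06, adjusted p = 8.08e-05). Under the alternative settings *Myof* ranged from 0.83 to 1.59, and its mean in WT replicates 3 and 4 differed from that in replicates 1 and 2 by -40.7%. *Tgfb2* (0.66 to 0.92) and *Ccdc80* (0.71 to 0.85) had overlapping ranges under these settings, so their order was not settled. The 7 targets not called were *Arhgef17* (133 CPM in WT), *Ptpn14* (84.3), *Asap1* (61.6), *Crim1* (31.1), *F3* (4.47), *Gadd45a* (2.43) and *Nuak2* (2.06 CPM), and *Foxf2* was not tested. Of the targets, 6 were called without *Nrg1GOF* replicate 2, WT replicate 3 or WT replicate 4, and also against WT replicates 1 and 2 alone, and 11 against WT replicates 3 and 4 alone. The share of all tested genes called moved too, to 20.4%, 22.2%, 22.2%, 18.6% and 27.7% in the same order. In 7 of the 9 called targets both WT replicates 1 and 2 exceeded WT replicates 3 and 4, as they did for *Ankrd1* (-15.2%), whereas the pairs differed by 1.32% for *Ctgf* and -1.89% for *Cyr61*.

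Markers of several cell types moved with the genotype. All 6 fibroblast markers were called higher, and their summed level was 3819 to 5206 CPM in WT and 7104 to 9089 CPM in *Nrg1GOF*, a ratio of means of 1.77. All 5 macrophage markers were higher (32.5 to 39.1 CPM against 68.0 to 75.2 CPM), as were 5 of 8 endothelial markers (1163 to 1193 CPM against 1289 to 1413 CPM). Of 6 epicardial markers 4 were higher and 1 lower (148 to 167 CPM against 186 to 216 CPM), and of 6 atrial markers 3 were higher (994 to 1139 CPM against 1629 to 1796 CPM). Of 7 cardiomyocyte markers 5 were lower (34995 to 36467 CPM against 26935 to 32104 CPM), and of 6 mural markers 3 were higher and 2 lower (1312 to 1534 CPM against 1066 to 1191 CPM). Most of the mural sum was *Acta2*, and the mean sum of the other 5 mural markers was 359 CPM in WT and 451 CPM in *Nrg1GOF*. None of 5 red blood cell markers was called (2266 to 6278 CPM against 2630 to 4418 CPM), and no marker of any list was at 0 in all libraries. *Ctgf*, *Cyr61*, *Ccdc80*, *Axl* and *Tgfb2* are expressed in non-muscle cells too, and the part of cell composition in their change was not tested. Within WT, the fibroblast sum was 35.7% higher in replicates 1 and 2 than in replicates 3 and 4, the macrophage sum 12.2%, the mural sum 11.2%, the atrial sum 9.83%, the epicardial sum 8.94%, the red blood cell sum 138%, the endothelial sum 0.22% and the cardiomyocyte sum 0.067% higher. The cardiomyocyte sum held opposite differences. *Myh6* stood at 3718, 3639, 2003 and 1960 CPM in WT replicates 1 to 4. *Myh7*, the largest part of that sum, had 17332, 17048, 18290 and 17752 CPM. *Ankrd1* was higher in both WT replicates 1 and 2 than in WT replicates 3 and 4, and *Ctgf* and *Cyr61* differed by less than 2% between these pairs.

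**Figure D3:**
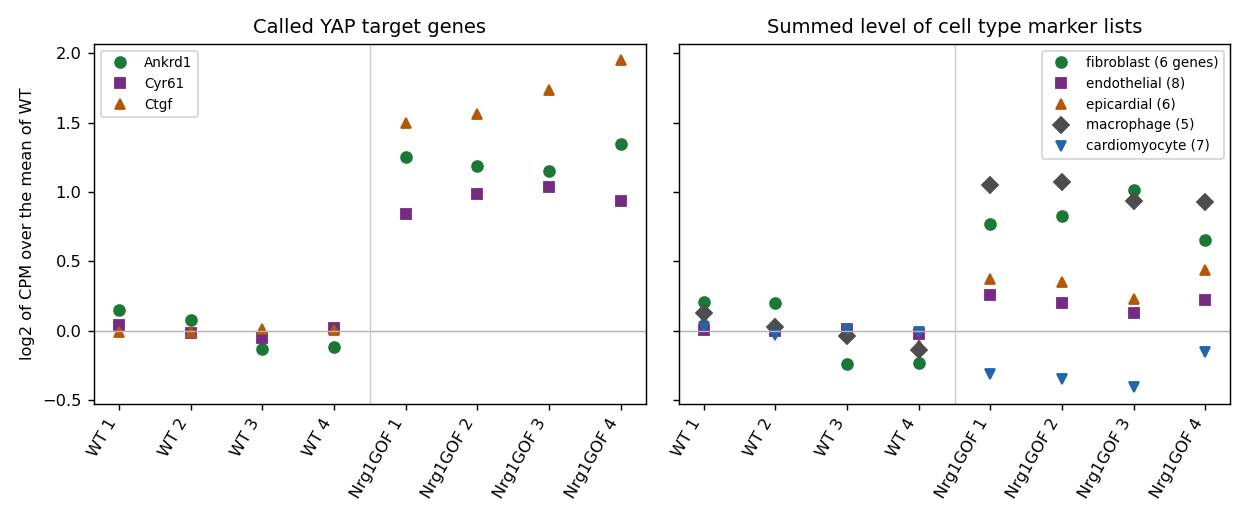
Log2 of CPM over the WT mean (vertical axis) in each of the 8 libraries for *Ankrd1*, *Cyr61* and *Ctgf* (left) and for the summed level of 5 marker lists (right). *Nrg1GOF* libraries lie above 0 for the 3 targets and for fibroblast, endothelial, epicardial and macrophage lists, and below 0 for cardiomyocyte markers. WT replicates 1 and 2 stand above WT replicates 3 and 4 for fibroblast, epicardial and macrophage markers and *Ankrd1*, and not for *Ctgf* or *Cyr61*.

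The sequence before the starts of these genes was searched for the TEAD motif, since TEAD factors bring YAP and TAZ to DNA. The motif searched was GGAATG on either strand, in the 250 bases before each RefSeq start (GRCm38.p6). RefSeq windows were at hand for 8 of the 10 genes, all but *Tead1* and *Ctgf*. A match lay in the windows of 6 of these 8, *Yap1*, *Wwtr1*, *Amotl2*, *Ankrd1*, *Cyr61* and *Ajuba*, and in 7 of their 10 windows, of which the 2 of *Wwtr1* overlap and share the same match. Of all 32851 windows 12.6% held the motif, and 1.02% held it more than once, as those of *Ankrd1* and *Ajuba* did. The 30 bases around each match are shown to compare the called targets *Ankrd1* and *Cyr61* with genes that were not called. Each is written 5′ to 3′ on the strand that reads GGAATG, with the motif in capitals.
Ankrd1, chr19:36120037-36120066, minus strand: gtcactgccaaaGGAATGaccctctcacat
Ankrd1, chr19:36119950-36119979, minus strand: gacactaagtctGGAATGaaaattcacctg
Cyr61, chr3:145650071-145650100, plus strand: tcaaacatctcaGGAATGttggttggcgcg
Yap1, chr9:8004720-8004749, minus strand: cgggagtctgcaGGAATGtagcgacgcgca
Wwtr1, chr3:57576029-57576058, minus strand: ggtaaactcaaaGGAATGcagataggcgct
Amotl2, chr9:102717727-102717756, minus strand: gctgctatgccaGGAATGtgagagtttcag
Ajuba, chr14:54577830-54577859, plus strand: gaggggcactgtGGAATGtatccatcaacg
Ajuba, chr14:54577808-54577837, plus strand: ttgtttacagttGGAATGcgcggaggggca

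The matches of *Ankrd1* began 210 and 123 bases before its start, and those of *Ajuba* 186 and 164 bases before its start. The match of *Cyr61* began 103 bases before its start, that of *Yap1* 141 and that of *Amotl2* 65. The whole window of *Cyr61* (chr3:145649986-145650235, on the minus strand of the gene) is shown as that of a called CCN gene, and its motif reads CATTCC on this strand.
Cyr61: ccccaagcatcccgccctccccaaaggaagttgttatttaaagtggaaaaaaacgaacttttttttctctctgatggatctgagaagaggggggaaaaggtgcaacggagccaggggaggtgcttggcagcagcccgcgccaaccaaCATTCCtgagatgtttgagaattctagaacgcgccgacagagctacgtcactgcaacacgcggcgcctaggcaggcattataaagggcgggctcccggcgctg
The motif was present before the called genes *Ankrd1* and *Cyr61*, and also before *Yap1*, *Wwtr1*, *Amotl2* and *Ajuba*, which were not called. GENCODE M21 places the matches of *Ankrd1* and *Amotl2* within an exon of another transcript of the same gene. Both windows of *Lats2* (chr14:57746124-57746373 and chr14:57734419-57734668) lie inside the span of the gene given above. The sequence before its outermost GENCODE start was not searched. Of the other targets, 11 had a window and 3 of these (*Axl*, *Crim1* and *Ptpn14*) held the motif. A match of these letters is no evidence of binding. The CArG box of serum response factor was in no window of the 10 genes or the other targets, and in 1.47% of all windows.

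**Figure D4:**
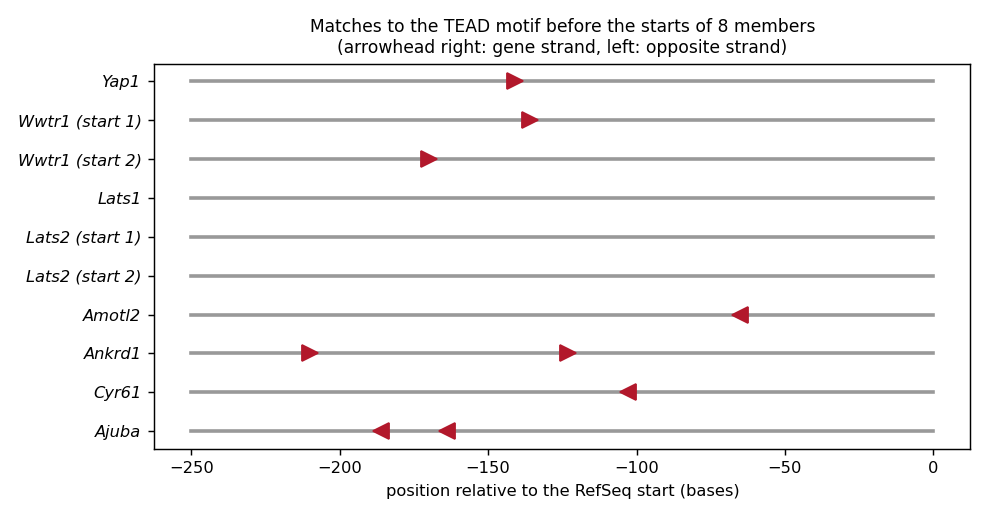
Position of each match to GGAATG (arrowheads, pointing right where the motif reads on the strand of the gene) relative to the RefSeq start, in bases, for the windows of 8 genes. *Ankrd1* and *Ajuba* hold 2 matches each, and the windows of *Lats1* and *Lats2* hold none.

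The calls of *Ctgf*, *Ankrd1* and *Cyr61* held under every one of the 21 alternative settings. Log2 fold changes ranged from 1.61 to 1.76 for *Ctgf*, from 1.12 to 1.37 for *Ankrd1* and from 0.88 to 1.00 for *Cyr61*. *Lats1*, *Lats2*, *Tead1*, *Amotl2* and *Ajuba* were called under none of them, while *Yap1* was called under 3 and *Wwtr1* under 5.

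**Figure D5:**
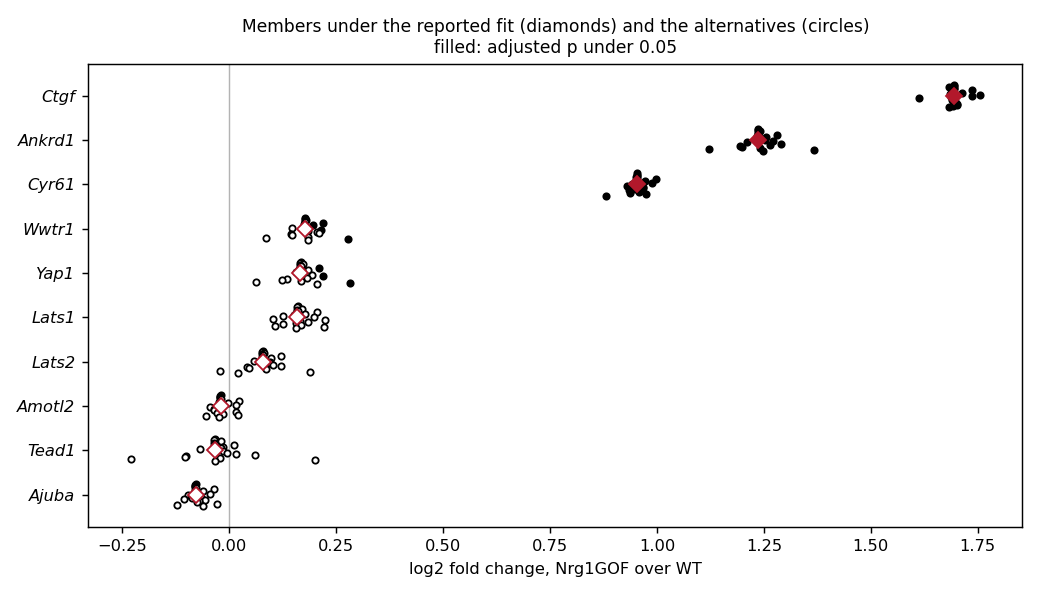
Log2 fold change (horizontal axis) of each gene as reported (diamonds) and under the 21 alternatives (circles), filled where the adjusted p is under 0.05. *Ctgf*, *Ankrd1* and *Cyr61* are filled throughout, *Yap1* and *Wwtr1* under some settings, and *Tead1*, *Lats2* and *Amotl2* fall on either side of 0.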

How the data were processed

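The table deposited by the authors holds expected counts from RSEM for each gene. The submitters' processing notes name RSEM 1.3.1, cutadapt and GRCm38. The strand setting of the counting is not given in the sources used here, so reads of overlapping antisense transcripts cannot be told apart. Expected counts share ambiguous reads between genes and were rounded to whole numbers. The quasi-likelihood F-test of edgeR 4.0.16 (R 4.3.3) was run on genes kept by filterByExpr, with TMM scaling, genotype as the sole term and all 8 libraries. P values were two-sided and adjusted by Benjamini-Hochberg over 15580 genes, with a threshold of 0.05, and the intervals are the log2 fold change ± the t quantile times its SE. The test was checked on simulated data. Log2 paralog ratios (pseudocount 0.5 CPM) were compared by exact two-sided permutation. Lengths and coordinates came from GENCODE M21 and promoter sequences from RefSeq.

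Members and lists were chosen with earlier results of these data known. All 10 members were given in full, and of each other list the called genes with the largest absolute change, up to 5 for YAP targets and up to 3 for the rest. Further genes named only as not called, not tested or holding the motif were named after their values were seen. Alternatives were the likelihood ratio test, DESeq2 1.42.0, limma-voom 3.58.1, other scalings and filters, a replicate block, leaving out each library, summing WT pairs or using 1 pair alone, thinning to equal totals and a minimum log2 change of 0.5. Replicates are separate samples, and no library was left out. Floors of 3 counts cover counting error only, since reads carried no molecular identifiers.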

Additional observations from a re-analysis of the deposited data

Results flagged for a closer look

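The values below stood far from the other libraries of their group, with a gap to the nearest library above Dixon's 95% critical value of 0.829 as a share of the group's range. Of 74 groups examined, 3 did so, where chance gives about 3.7. *Amotl2* was 121 CPM in WT replicate 3 against 109 to 111 CPM in the other WT libraries (0.867). *Axl* was 117 CPM in *Nrg1GOF* replicate 4 against 127 to 129 CPM in the others (0.864). The library total of *Nrg1GOF* replicate 4 was 8038641 counts against 20578081 to 22547833 (0.864).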

How the results depend on the processing

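Of 749 values recomputed under alternatives, 680 kept their direction and side of the threshold or moved little. With library totals alone, 5 of the 10 genes were called, all 5 higher, since *Yap1* and *Wwtr1* passed, where 28.2% of all tested genes were called and 18.4% higher and their median log2 fold change was 0.033, and the log2 fold changes of *Tead1* and *Amotl2* became 0.011 and 0.023. Against WT replicates 3 and 4 alone 5 of the 10 were also called, all 5 higher, against 27.7% of all tested genes, and *Tead1* became 0.20. Against WT replicates 1 and 2 alone *Lats2* became -0.021 and *Amotl2* 0.021, and 1308 of all tested genes were called lower. Summing each WT pair left 2464 called genes (15.3%), of which 1548 rose and 916 fell, and 5 of the other components. *Nov*, *Limd1*, *Mob1a* and *Dchs1* lost their calls with WT pairs summed, and *Nov* also after thinning to equal totals. A minimum log2 change of 0.5 left 2008 genes (1461 higher, 547 lower) and also 5 components. The cause was not tested. Leaving out 1 library gave 5 to 10 components, and log2 fold changes of -0.10 to 0.060 for *Tead1* and -0.044 to 0.015 for *Amotl2*. It gave log2 ratio differences of -0.015 to 0.046 for *Wwtr1* over *Yap1*, -0.13 to 0.0055 for *Lats2* over *Lats1* and -0.11 to 0.014 for *Amotl2* over *Amotl1*. For *Ctgf* over *Cyr61* it gave 0.65 to 0.79, and the exact permutation p adjusted over 4 pairs was at the smallest value that this design allows for a single pair (0.114), so it says nothing about stability. With the replicate number as a replicate block, 4524 genes (29%) were called, and 4 of the 10 genes, with *Wwtr1* at 0.18 (edgeR adjusted p = 0.0406). The block called 8 of the other targets and 11 of the components. Called targets numbered 6 with WT pairs summed, against WT replicates 1 and 2 alone (18.6% of all tested genes called), after thinning (25.1%) and with the minimum change, and 6 to 9 when 1 library was left out. Deviations of same-numbered libraries correlated at 0.0705 to 0.294, and not every library correlated best with its own number, so the numbers were not taken to pair the samples. Depth limits genes of few counts, such as *Vgll2*, *Wisp2*, *Wisp3* and *Foxf2*.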
